A study of Homo sapiens with 24 samples.

Results

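SCaBER is a human bladder cancer cell line of the basal/squamous (Ba/Sq) class. The data described here come from SCaBER cells in which siZBED2-1, the first ZBED2 siRNA of the study, was added to a FOXA1 siRNA (siFOXA1). The comparison sets 2 libraries of siFOXA1+siZBED2-1 (the double knock-down) against 2 libraries of siFOXA1 alone, chosen by their labels, which makes 4 of the 24 libraries of the series. Both groups therefore carry the FOXA1 siRNA, and the groups differ in siZBED2-1 only. The labels name siFOXA1 number 1 and no control siRNA in the siFOXA1 libraries, so the loss of ZBED2 cannot be told apart from the addition of another siRNA as such. The remaining 8 SCaBER libraries entered the model for the estimate of spread, the choice of genes to test and the scaling of libraries. They were not part of the comparison. With them 13129 genes were tested, against 11682 with only the 4 libraries compared. The same 2 treatments in RT112, a luminal papillary bladder cancer line, were used to test whether a change differed between lines. Nothing in the labels says that the replicates were separate cultures beyond an experiment batch number, so p-values measure the spread between these libraries, which may be technical.

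ZBED2 is a zinc finger transcription factor of the BED domain family, known to bind promoters that interferon regulatory factors also use and to lower the output of interferon genes in pancreatic cancer cells. FOXA1 is a pioneer factor that keeps urothelial cells luminal. Interferons act through receptors and JAK kinases on STAT factors. STAT2 with IRF9 is part of the complex that binds the interferon-stimulated response element (ISRE) before genes for antiviral proteins. Interferon also induces IRF1, the chemokines CXCL10 and CXCL11 and the checkpoint ligand CD274 (PD-L1).

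Transcripts were counted by 3′ end sequencing, in which oligo-dT priming places reads near the poly(A) tail. The 4 libraries held between 4519668 and 5557521 counts in genes, and 3 counts, taken as the floor of detection, were worth 0.553 to 0.680 CPM (counts scaled to library size). The floors cover counting error only, while each standard error (SE) given with a fold change also includes the estimated spread between libraries. All 12 basal/squamous markers examined (KRT5, KRT14, KRT6A, TP63 and others) stood above the floor in the 4 libraries, with summed levels of 5740 and 5433 CPM under siFOXA1 and 6783 and 7017 CPM in the double knock-down. Of 8 luminal markers, KRT20, UPK1A and UPK3A had no count in any of the 4, and the sum lay between 27.1 and 35.7 CPM. Of 11 leukocyte, fibroblast and endothelial markers 7 had no count, and COL1A1 alone was above the floor in every library (10.9 to 14.1 CPM).

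The targeted genes were examined first. ZBED2 (ENSG00000177494; GRCh38 chromosome 3, 111592900 to 111595346) had 100 and 84 counts in the siFOXA1 libraries and 20 and 8 in the double knock-down. In CPM these are 20.4 and 19.1 against 3.69 and 1.70, so that both double knock-down libraries lay below both siFOXA1 libraries. The fall was 7.18-fold (log2 fold change −2.84, SE 0.50, edgeR quasi-likelihood test with Benjamini-Hochberg adjustment, adjusted p 5.4e-04), and it was called in 11 of 11 alternative analyses. FOXA1 itself (ENSG00000129514; chromosome 14, 37589552 to 37595249) was close to the floor in both groups, with 4 and 6 counts under siFOXA1 and 0 and 1 in the double knock-down. A difference in FOXA1 was not detectable at this depth (adjusted p 0.419).

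**Figure D1:**
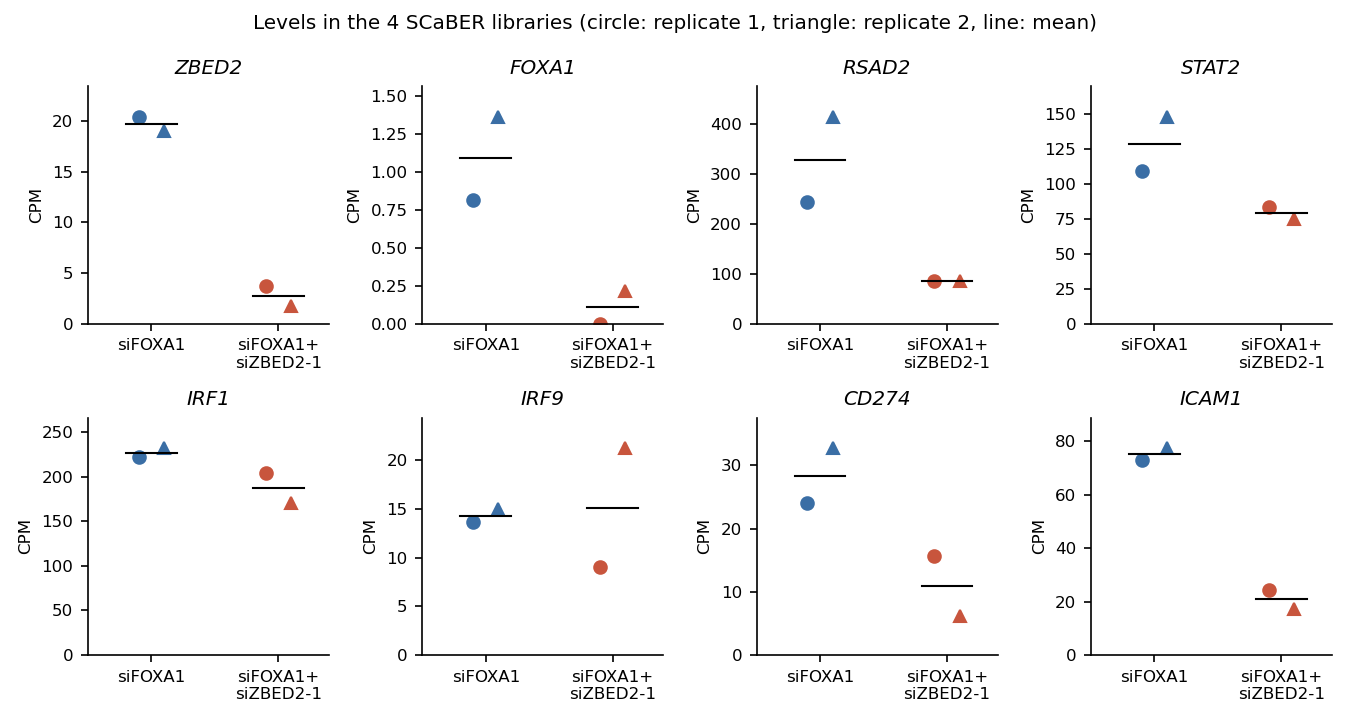
Levels in CPM (linear axes from 0) of 8 genes in the 4 SCaBER libraries. Circles are replicate 1, triangles replicate 2 and horizontal lines the mean of 2 libraries. ZBED2, RSAD2 and ICAM1 are lower in both double knock-down libraries (ZBED2 3.69 and 1.70 CPM against 20.4 and 19.1), while the IRF9 libraries overlap.

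Addition of siZBED2-1 changed 359 of 13129 tested genes at an adjusted p under 0.05 (2.73% of genes tested), of which 177 rose (1.35%) and 182 fell (1.39%). Of these, 58 rose and 64 fell at least 2-fold. In 359 of the 359 the libraries of the groups did not overlap. Over all genes tested, both double knock-down libraries lay below both siFOXA1 libraries in 21.6% and above both in 21.1%. Calls and overlap come from the same libraries, so the lack of overlap is not separate support. The median log2 fold change over all tested genes was −0.01. The number of calls rested on single libraries. It was 201 without siFOXA1 replicate 2 and 133 without double knock-down replicate 2, and 408 and 283 without the other two libraries. The genes that fell included interferon-stimulated genes such as RSAD2 and ISG15 and proteases such as MMP13, and those that rose included KRT5, RPS2 and PSAT1.

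**Figure D2:**
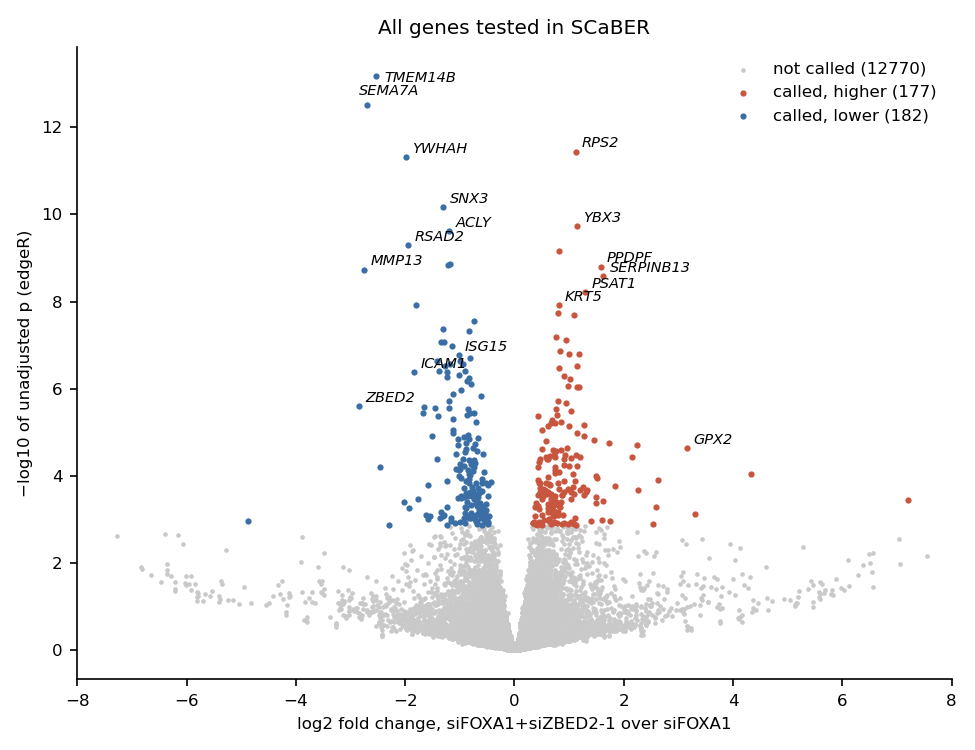
All 13129 tested genes, with the log2 fold change of siFOXA1+siZBED2-1 over siFOXA1 on the x axis and −log10 of the unadjusted edgeR p on the y axis. Called genes are red when higher (177) and blue when lower (182). TMEM14B and SEMA7A have the smallest p among the genes that fell, RPS2 among those that rose.

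The genes with the smallest p on the lower side code for proteins of diverse function. TMEM14B (chromosome 6, 10747759 to 10759774), a small multi-pass membrane protein, stood at 135 and 131 CPM under siFOXA1 and at 24.5 and 21.6 CPM in the double knock-down, 5.76-fold lower (log2 fold change −2.53, SE 0.20, adjusted p 8.6e-10). Its paralog TMEM14C, named after its values were seen, fell as well (log2 fold change −1.43), and reads that both genes could share leave this pair uncertain. SEMA7A (chromosome 15, 74409289 to 74433958), a GPI-anchored semaphorin that signals through integrins, stood at 242 and 290 CPM against 56.8 and 24.6 CPM, a 6.49-fold fall (adjusted p 2.05e-09). YWHAH, the eta member of the 14-3-3 adaptor family, went from 106 and 97.3 CPM to 28.2 and 23.1 CPM (3.94-fold lower, adjusted p 1.6e-08). In each of these genes the gap between groups was larger than the gap within either group.

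Further genes with the smallest p on the lower side were SNX3, ARF3, STX12, MAP7D1 and ABHD2. SNX3, a sorting nexin of the retromer pathway, had 287 and 286 CPM under siFOXA1 and 123 and 109 CPM in the double knock-down (2.46-fold lower). ARF3, a small GTPase of the Golgi, had 291 and 253 CPM against 133 and 106 CPM (2.28-fold lower). STX12, an endosomal syntaxin, had 88.1 and 137 CPM against 32.1 and 32.2 CPM (3.50-fold lower). Their adjusted p lay between 1.7e-07 and 9.3e-06. MAP7D1, a microtubule-associated protein, was 2.33-fold lower and ABHD2, a serine hydrolase, 2.49-fold lower. In all 5 genes the groups did not overlap, which the rule for naming them required.

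ACLY, which makes cytosolic acetyl-CoA for lipid synthesis, fell from 323 and 357 CPM to 158 and 140 CPM (log2 fold change −1.19, SE 0.13, adjusted p 4.4e-07). FDPS, the farnesyl diphosphate synthase of the cholesterol pathway, fell from 548 and 576 CPM to 351 and 288 CPM (adjusted p 7.9e-05). They were the only called genes among 35 tested genes of cholesterol and fatty acid synthesis (5.71%, against 1.39% of all genes called lower). The median log2 fold change of the list was −0.21, beside −0.01 over all genes. MT2A, a metal-binding metallothionein with near-identical family members and therefore uncertain, went from 2386 and 2715 CPM to 1586 and 1473 CPM (log2 fold change −0.74, adjusted p 1.9e-05).

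Interferon-stimulated genes formed the largest group on the lower side among the gene lists. Of 55 tested antiviral effectors 23 fell (41.8%, against 1.39% of all genes), and the other 32 did not pass the test. The median log2 fold change of the list was −0.74, a 1.68-fold fall, and 53 of 55 values were negative. In 42 of 55 members both double knock-down libraries lay below both siFOXA1 libraries, as they did in 21.6% of all genes tested. No member had both double knock-down libraries above both siFOXA1 libraries, which 21.1% of all genes had. The summed level of the list was 16626 and 22312 CPM under siFOXA1 and 11463 and 12571 CPM in the double knock-down.

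RSAD2 (viperin; chromosome 2, 6865885 to 6898239), which makes a chain-terminating nucleotide, had the smallest p of the list. It stood at 242 and 414 CPM under siFOXA1 and at 85.5 and 84.6 CPM in the double knock-down, 3.85-fold lower (log2 fold change −1.95, SE 0.22, adjusted p 8.2e-07). ISG15, the ubiquitin-like modifier, had 1401 and 2310 CPM against 874 and 951 CPM (2.03-fold lower, adjusted p 7.0e-05). IFIT3, which binds viral RNA together with IFIT1, had 1223 and 1722 CPM against 740 and 828 CPM (1.88-fold lower, adjusted p 1.2e-04). In each of these the siFOXA1 libraries stood apart from one another, replicate 2 above replicate 1, while the double knock-down libraries were close. APOL1, an interferon-induced apolipoprotein, showed less of this (460 and 550 CPM against 293 and 287 CPM, 1.74-fold lower).

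Over the list, 52 of 55 members were higher in siFOXA1 replicate 2 than in replicate 1, with a median difference of 0.40 on the log2 scale (−0.01 over all genes). Within replicate 1 the median log2 ratio of double knock-down to siFOXA1 was −0.54, and within replicate 2 it was −0.89. Without siFOXA1 replicate 2 the number of called members was 10 and the median −0.45. Without siFOXA1 replicate 1 they were 32 and −0.91, and leaving out a double knock-down library gave 16 and 18 called members. limma on log2(TPM + 1) called 2 members with a median of −0.69. The direction of the median was the same in each of these.

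**Figure D3:**
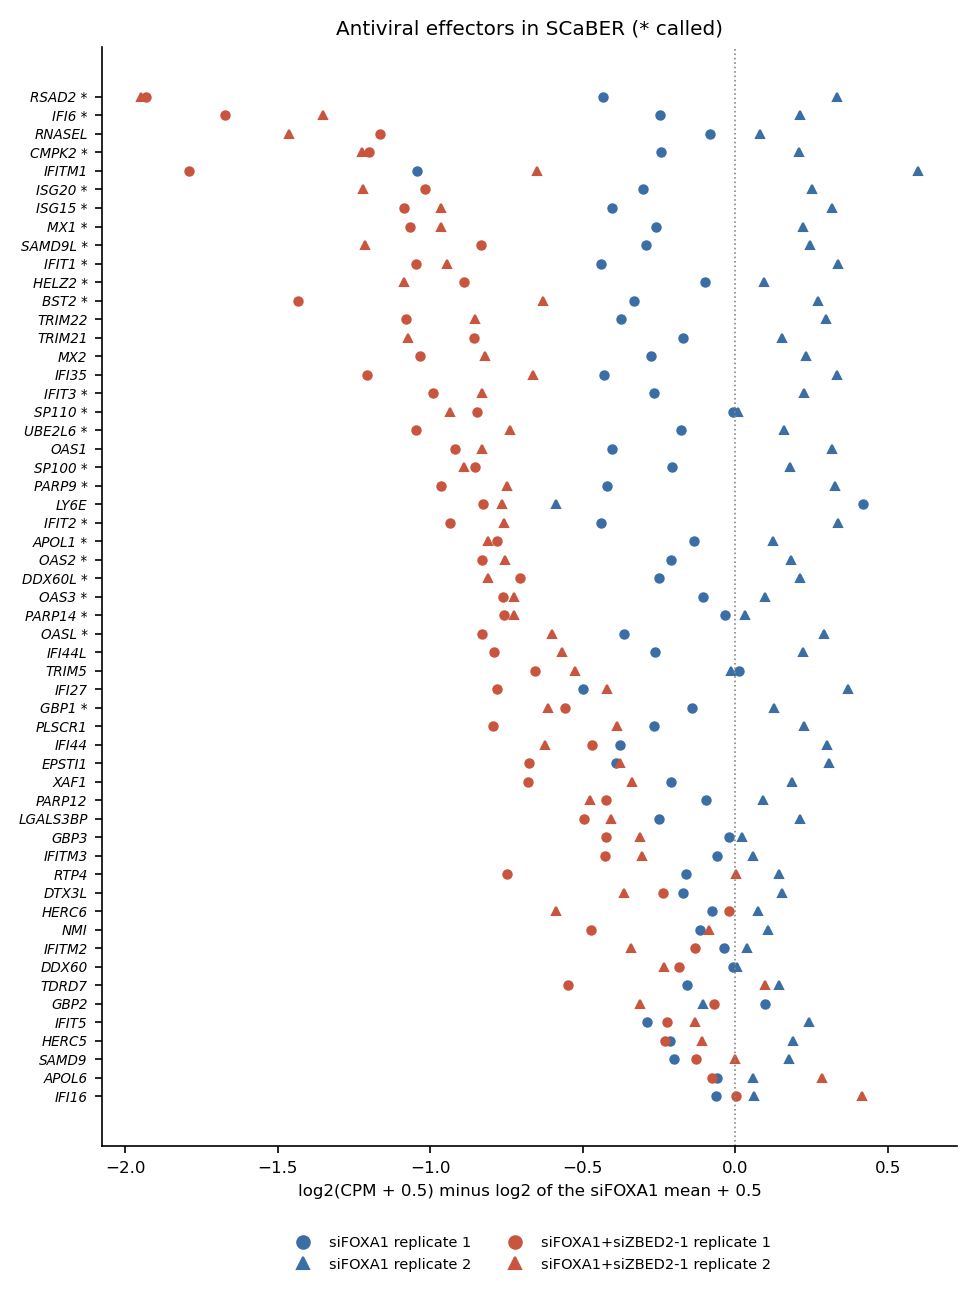
The 55 antiviral effectors, ordered by log2 fold change, in the 4 libraries. The x axis gives log2(CPM + 0.5) relative to the mean of the siFOXA1 libraries, circles are replicate 1, triangles replicate 2, blue siFOXA1 and red the double knock-down, and asterisks mark the 23 called members. Red symbols lie to the left of blue in 42 of the 55, and the blue triangles lie to the right of the blue circles in 52.

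The ISRE core, the element before many antiviral genes, was searched in RefSeq promoter windows (GRCh38.p14, 250 bases before to 50 after the start of each gene). The motif was GAAA followed after any 2 bases by GAAA, or on the other strand TTTC followed after any 2 bases by TTTC, with overlapping matches counted. It was present in 3.65% of 27305 RefSeq promoters and in 2.87% of the 9415 that matched a tested gene. Among called antiviral effectors 11 of 19 matched promoters held it (57.9%), and 19 of 25 among those not called (76.0%). It was found in 24 of 141 promoters of genes that fell (17.0%) and in 1 of 132 of genes that rose (0.758%). Outside the 3 interferon lists, 11 of 117 promoters of genes that fell held it (9.40%). These 117 can still include interferon-induced genes kept in other lists, as CXCL10 and CXCL11 are. A match describes the letters and does not show binding. Stretches before the start sites of called genes are given below 5′ to 3′ on the strand of the gene, with the motif in capitals.
ISG15 (chr1:1013380-1013409, plus strand): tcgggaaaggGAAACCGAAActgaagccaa
IFIT1 (chr10:89392497-89392526, plus strand): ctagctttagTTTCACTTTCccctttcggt
OAS3 (chr12:112938321-112938350, plus strand): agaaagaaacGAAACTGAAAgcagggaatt
IFI6 (chr1:27672288-27672317, minus strand): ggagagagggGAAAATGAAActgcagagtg
BST2 (chr19:17405741-17405770, minus strand): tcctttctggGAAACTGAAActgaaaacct
IFIH1 (chr2:162318686-162318715, minus strand): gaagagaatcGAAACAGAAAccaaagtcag
The genes of these stretches differed in the size of their fall. IFI6, which inhibits the release of cytochrome c, fell from 1087 and 1492 CPM to 404 and 505 CPM (log2 fold change −1.50, adjusted p 0.0018), and OAS3, a synthetase that activates RNase L, fell from 357 and 412 CPM to 227 and 233 CPM (−0.74, adjusted p 0.0043). BST2 (tetherin) and IFIT1 fell by 0.98 and 1.00 on the log2 scale.

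The factors that transmit the interferon signal were then examined. STAT2 (chromosome 12, 56341597 to 56360107) had 109 and 148 CPM under siFOXA1 against 83.7 and 75.3 CPM in the double knock-down, a 1.62-fold fall that passed narrowly (log2 fold change −0.69, SE 0.20, adjusted p 0.048). STAT2 lost its call in 5 of 11 alternatives, among them each fit without double knock-down replicate 1 (adjusted p 0.123), siFOXA1 replicate 2 (0.568) or double knock-down replicate 2 (0.396). IRF9, the DNA-binding partner of STAT2, had 13.7 and 15.0 CPM against 9.03 and 21.2 CPM and overlapped between groups (log2 fold change 0.07, SE 0.55). IRF1 had 222 and 232 CPM against 204 and 171 CPM, and the difference did not pass (log2 fold change −0.27, SE 0.14, adjusted p 0.391). Of 20 tested interferon receptors, JAKs, STATs and IRFs 2 were called, both lower (10%, against 1.39% of all genes), with a median of −0.26.

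Of 18 tested double-stranded RNA sensors and adaptors, a list that also holds enzymes acting on nucleotides and RNA, 4 fell (22.2%, against 1.39% of all genes), and the median was −0.34. SAMHD1, a dNTP hydrolase that restricts viral reverse transcription, went from 253 and 306 CPM to 153 and 157 CPM (1.80-fold lower, adjusted p 5.9e-04). IFIH1 (MDA5), the cytosolic sensor of long double-stranded RNA, went from 221 and 296 CPM to 152 and 136 CPM (1.80-fold lower, adjusted p 0.0018). ADAR, the RNA-editing deaminase, and EIF2AK2 (PKR) were 1.51-fold and 1.61-fold lower. The calls in this list fell to 1 without siFOXA1 replicate 2, to 1 without double knock-down replicate 2 and to 2 without double knock-down replicate 1.

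Ligands toward immune cells moved mostly lower, by uneven amounts. CD274 (PD-L1; chromosome 9, 5450542 to 5470554) had 118 and 144 counts under siFOXA1 and 85 and 29 in the double knock-down, or 24.1 and 32.7 CPM against 15.7 and 6.15 CPM. Both double knock-down libraries were lower, they stood apart from one another, and the difference did not pass (log2 fold change −1.37, SE 0.43, adjusted p 0.090). With the replicate number as a block it passed (log2 fold change −1.44, adjusted p 0.040). ICAM1, the ligand of leukocyte integrins, went from 73.2 and 77.3 CPM to 24.5 and 17.4 CPM, 3.58-fold lower (adjusted p 1.3e-04). LGALS9 (galectin-9) went from 138 and 136 CPM to 41.5 and 44.5 CPM, 3.18-fold lower (adjusted p 6.9e-04), and as galectin-9 has near-identical copies its value is uncertain. These were the called members among 14 tested checkpoint and adhesion ligands (14.3%, against 1.39% of all genes called lower). The median of these ligands was −0.19, and 12 of 14 values were negative, beside 50.6% of all genes. In MHC class I presentation 1 of 18 tested genes was called (5.56%, against 1.39% of all genes), and 14 of 18 values were negative. The called gene was the immunoproteasome subunit PSMB9 (152 and 157 CPM against 93.6 and 86.7 CPM, 1.71-fold lower). The summed level of the MHC class I list was 4245 and 4429 CPM under siFOXA1 and 4478 and 4502 CPM in the double knock-down. This sum was not lower, while the median of the list was −0.37. This median was −0.05 without siFOXA1 replicate 2, and without double knock-down replicate 2 no gene of the list was called.

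Of 23 tested chemokines and cytokines 5 fell (21.7%, against 1.39% of all genes) and 2 rose (8.70%, against 1.35%). CXCL11, a T cell attractant induced by interferon, fell from 181 and 273 CPM to 101 and 87.6 CPM (2.41-fold, adjusted p 1.1e-04), and TNFSF10 (TRAIL) fell 1.86-fold. CXCL10, CSF1 and IL11 also fell, by 1.77, 1.24 and 1.55 on the log2 scale. The interleukin 1 genes IL1B and IL1A moved the other way. IL1B rose from 47.3 and 45.8 CPM to 82.0 and 92.2 CPM (1.87-fold, adjusted p 0.0043), and IL1A from 50.6 and 42.2 CPM to 85.9 and 87.4 CPM (1.87-fold, adjusted p 0.0055). No call of the list was higher without siFOXA1 replicate 2 or without double knock-down replicate 2, which left 1 and 2 calls, each lower.

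Matrix proteases had 5 called genes lower (15.2%, against 1.39% of all genes) and 1 higher (3.03%, against 1.35%) of 33 tested (median −0.06). MMP13, a collagenase, went from 51.0 and 119 CPM to 10.7 and 14.6 CPM, 6.70-fold lower (log2 fold change −2.74, SE 0.33, adjusted p 1.9e-06). MMP14, the membrane-bound activator of other metalloproteases, was 1.57-fold lower and ADAM8 1.40-fold lower. PLAUR, the urokinase receptor, fell by 0.51 on the log2 scale, while F3 (tissue factor) rose 1.42-fold. Without double knock-down replicate 2 there was 1 call on the lower side and none on the higher. Among TGF-beta, BMP and ID genes (26 tested, median −0.15) the activin subunit INHBA fell from 436 and 391 CPM to 237 and 196 CPM (1.91-fold, adjusted p 1.0e-04). Its secreted antagonist FST rose from 173 and 203 CPM to 278 and 334 CPM (1.63-fold), ID1 rose 1.95-fold and PMEPA1 fell 1.61-fold. The list thus had 2 calls higher and 2 lower (7.69% each, against 1.35% and 1.39% of all genes). Of YAP-TEAD genes (28 tested, median −0.12) ANKRD1 fell 2.53-fold and AXL 1.78-fold, and TEAD2 rose 2.04-fold. With F3, also counted in this list, 2 were called higher and 2 lower (7.14% each, against 1.35% and 1.39% of all genes). Without double knock-down replicate 2 neither of these 2 lists had a call on the higher side.

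On the higher side, basal and squamous markers had 11 called members of 41 tested (26.8%, against 1.35% of all genes), and a median of 0.26. KRT5 (chromosome 12, 52514575 to 52520394), the keratin of the basal layer, rose from 593 and 609 CPM to 1036 and 1065 CPM, 1.75-fold (log2 fold change 0.81, SE 0.11, adjusted p 9.3e-06). KRT6A, which has near-identical copies and is uncertain, rose from 1019 and 880 CPM to 1495 and 1720 CPM (1.69-fold, adjusted p 3.8e-05). The libraries of both groups were close in KRT5. SFN (14-3-3 sigma) rose from 2368 and 1818 CPM to 3048 and 3370 CPM (1.53-fold) and SPRR1B, a cornified envelope protein, from 41.4 and 30.6 CPM to 76.8 and 82.5 CPM (2.21-fold). The remaining calls were PERP, S100A8, S100A9, SERPINB3, SERPINB4, ITGA6 and KRT16, while 13 of the 41 values were negative. SERPINB3 had 16 and 36 counts under siFOXA1 and 48 and 121 in the double knock-down, and SERPINB4 9 and 10 against 40 and 86. These low counts, and reads that the paralogs could share, leave this pair uncertain. SERPINB13, a squamous serpin outside the list, rose from 47.5 and 68.0 CPM to 146 and 210 CPM (3.09-fold, adjusted p 2.4e-06). Without double knock-down replicate 2 the list had 4 calls and a median of 0.14. Luminal transcription factors had 3 calls higher of 17 tested (17.6%, against 1.35% of all genes), HES1, TFAP2A and KLF5, 1.55-fold to 1.75-fold. RXRA was the call on the lower side of the list (1.62-fold, 5.88% of the list, against 1.39% of all genes). When 1 library was left out, this list had 1 or 2 calls higher and none lower. Among 24 basal transcription factors HMGA2 rose 1.60-fold, and the called member on the lower side was ZBED2 itself. Each is 4.17% of the list, against 1.35% of all genes called higher and 1.39% called lower.

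Amino acid genes that ATF4 controls and tRNA synthetases had 9 called members of 33 tested, each higher (27.3%, against 1.35% of all genes), and a median of 0.33. PSAT1, of serine synthesis, rose from 56.9 and 74.2 CPM to 147 and 174 CPM, 2.45-fold (log2 fold change 1.29, SE 0.16, adjusted p 5.2e-06). SLC1A5, the glutamine transporter, rose from 63.4 and 60.8 CPM to 124 and 153 CPM (2.22-fold, adjusted p 1.1e-04). SLC7A5 and SLC3A2, which together form the large neutral amino acid transporter, rose 1.98-fold and by 0.61 on the log2 scale. SHMT2 and MTHFD2 of mitochondrial folate metabolism rose by 0.95 and 0.85 on the log2 scale. CHAC1, AARS and GARS were the other calls. The list had 5 calls without double knock-down replicate 2. The ER chaperone HSPA5 (BiP) fell from 907 and 825 CPM to 595 and 534 CPM (1.53-fold). It was the single call among 36 unfolded protein response genes (2.78%, against 1.39% of all genes called lower). The median of these genes was 0.12, and 24 of 36 values were positive (66.7%, against 49.3% of all genes).

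Of 78 tested cytosolic ribosomal protein genes 11 rose (14.1%, against 1.35% of all genes) and the other 67 did not pass the test. The median log2 fold change was 0.22, and 73 values were positive (93.6%, against 49.3% of all genes). RPS2 rose from 786 and 777 CPM to 1589 and 1802 CPM (2.17-fold, adjusted p 1.6e-08) and RPLP0 from 1184 and 1117 CPM to 1952 and 2079 CPM (1.75-fold, adjusted p 9.8e-07). RPL10 rose 1.59-fold and RPS6 1.42-fold. The values are uncertain because processed pseudogenes of these genes can share reads. With the replicate block 19 members were called, and without double knock-down replicate 2 it was 3. The nucleolar chaperone NPM1 (1.73-fold), also with pseudogenes, the cold shock protein YBX3 (2.20-fold), the host of small nucleolar RNAs SNHG16 (1.93-fold), PPDPF (2.98-fold), the secreted FGF carrier FGFBP1 (2.14-fold) and calmodulin gene CALM3 (1.77-fold) were the further genes with the smallest p on the higher side. Mitochondrial transcripts took 12.9% and 12.5% of counts under siFOXA1 and 11.8% and 11.0% in the double knock-down, and the part of this share in the ribosomal protein values was not tested. Of 15 mitochondrial transcripts the ribosomal RNA MT-RNR1 was called (1.61-fold lower, 6.67% of the list, against 1.39% of all genes).

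Smaller groups held few calls, to be read beside 1.35% of all genes called higher and 1.39% called lower. Of 60 mitotic genes 3 rose (5%, against 1.35% of all genes), MKI67 1.53-fold, CCNB2 1.73-fold and BUB1B 1.83-fold. The median was 0.24, and 44 values were positive (73.3%, against 49.3% of all genes). Of 27 G1 and RB-E2F genes CCND3 fell 2.04-fold and MYBL2 rose 1.54-fold (3.70% of the list each). Among 37 NRF2 genes GPX2, a glutathione peroxidase, rose 8.90-fold from a low level (10 and 2 counts against 65 and 52), GSR rose 1.83-fold and TXNRD1 fell 1.48-fold. Among 35 glycolysis and hypoxia genes GPI and LDHA rose 1.73-fold and 1.43-fold, and ANGPTL4 and SLC16A3 fell 5.49-fold and 1.65-fold. ERBB and MAPK genes had 3 calls of 24, each higher (PHLDA1, ETV4 and the ligand NRG1), which is 12.5%, against 1.35% of all genes. S100 genes had 3 calls of 14, each higher (S100A14, S100A8 and S100A9), which is 21.4%. S100A8 and S100A9 are also counted among the basal and squamous markers. Of 35 p53 and BCL2 genes GDF15 rose 3.58-fold and BBC3 (PUMA) fell 1.87-fold. Of 26 epithelial-mesenchymal markers MYL9 and OVOL1 rose 2.21-fold and 2.43-fold, and 2 fell, FN1 among them. FN1 (1.85-fold lower) and ITGA6 (1.36-fold higher) were the calls among 30 matrix and integrin genes, and ATP5F1B (1.38-fold higher) among 74 respiratory chain genes. Many of these small counts rested on single libraries. Without double knock-down replicate 2 no gene was called in the mitotic, G1 and RB-E2F, ERBB and MAPK, S100, p53 and BCL2, matrix and integrin or respiratory chain lists. Without siFOXA1 replicate 2 none was called in the mitotic, G1 and RB-E2F, p53 and BCL2 or matrix and integrin lists. The mitotic list had 7 calls without siFOXA1 replicate 1, and the ERBB and MAPK list had 1 call in each of the other three such fits. BUB1B and NRG1 lost their calls in 7 of 11 alternatives and ETV4 in 6. No gene was called by edgeR in 8 of the 35 lists (NF-kB regulators, DNA replication, luminal and umbrella cell markers, proteasome, lysosome and autophagy, RNA interference, tight junctions, and markers of other cell types). In these, 21 of 204 tested genes had an unadjusted p under 0.05 (10.3%, against 13.5% of all genes), DESeq2 called 1, and the medians of the lists with 10 or more tested genes lay between −0.17 and 0.11.

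**Figure D4:**
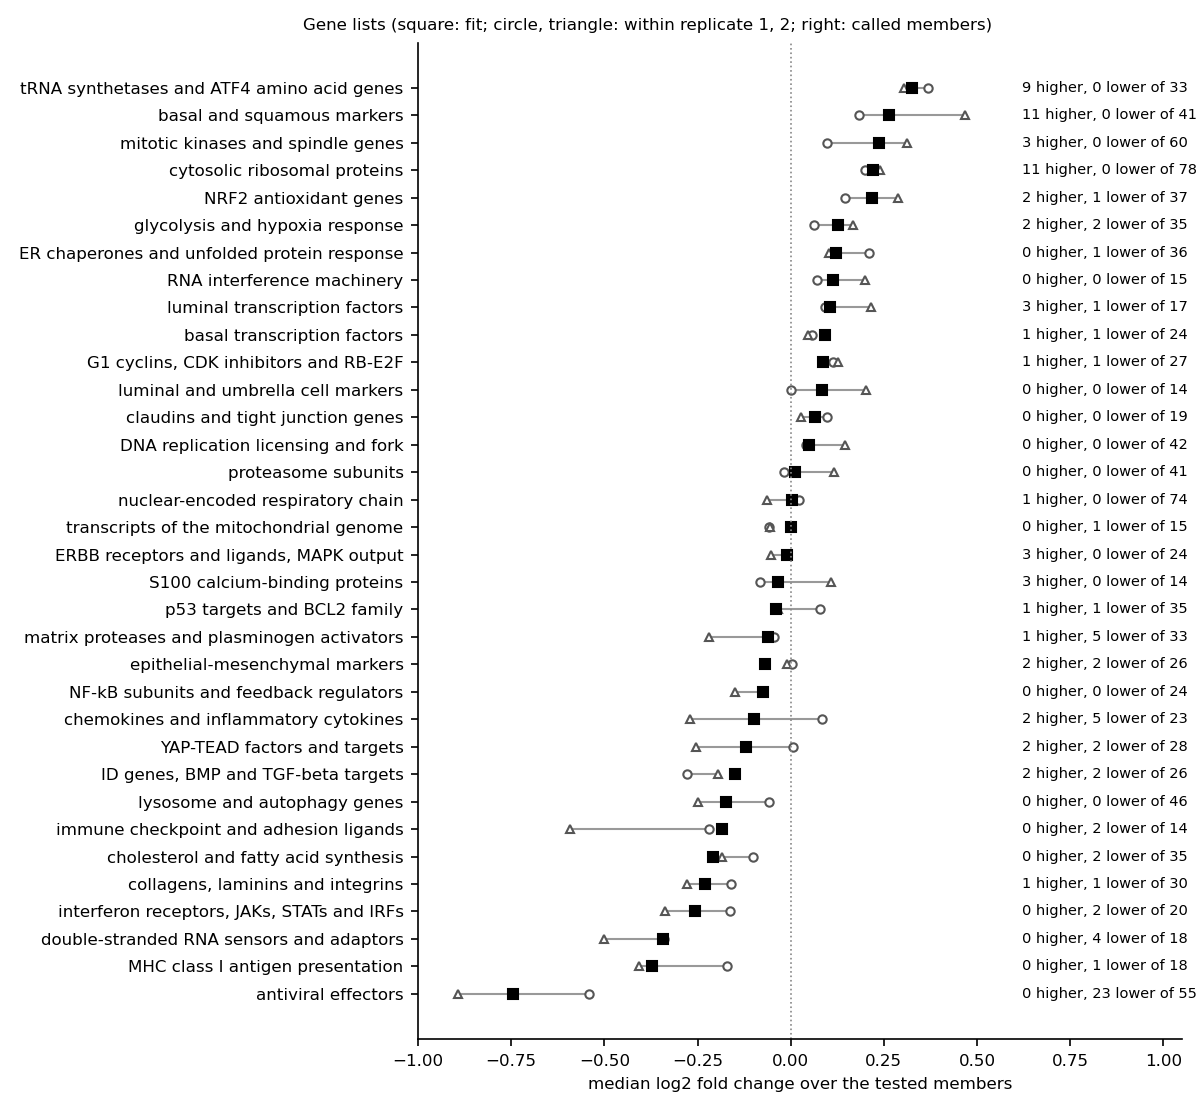
Median log2 fold change of each list with at least 10 tested genes (square), with the medians of the log2 ratios within replicate 1 (circle) and replicate 2 (triangle), and the called members at the right. Antiviral effectors lie lowest at −0.74 and the tRNA synthetase and ATF4 list highest at 0.33.

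RT112 received the same 2 treatments. In a fit of all 24 libraries, 404 of 14823 genes were called in RT112 and 163 in SCaBER. In this fit 57 genes were called in both lines, which is 34.97% of the SCaBER and 14.1% of the RT112 calls, and 57 of the 57 had the same direction. When the 359 calls of the fit of 12 SCaBER libraries (the 12-library fit) were set beside the RT112 calls of the 24-library fit, 79 were called in both (22.0% and 19.6% of the calls), and 78 of the 79 had the same direction. TMEM14B (log2 fold change −1.92, SE 0.26), SEMA7A (−2.22, SE 0.26), YWHAH (−1.98, SE 0.26), SNX3 (−1.31, SE 0.17), ACLY (−1.71, SE 0.17), ARF3 (−1.22, SE 0.16), MAP7D1 (−1.32, SE 0.15) and ABHD2 (−1.50, SE 0.21) all passed in RT112, with adjusted p between 2.0e-07 and 2.1e-05. KRT5 rose in RT112 by 0.68 (SE 0.16, adjusted p 0.015). Of 78 cytosolic ribosomal protein genes 37 were called higher in RT112, where 404 of 14823 genes were called in either direction. Their median was 0.42 in RT112 and 0.22 in the 12-library fit of SCaBER, so their rise was not particular to SCaBER. ZBED2 itself was low in RT112, at 5.46 and 1.52 CPM under siFOXA1 and 1.91 and 1.42 CPM in the double knock-down, and had a log2 fold change of −1.07 that did not pass (SE 0.78, adjusted p 0.567), so a fall of the targeted gene was not detected in the RT112 contrast.

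The antiviral effectors had a median of −0.06 in RT112, with 30 of 55 negative. RSAD2 had −0.57 there (SE 0.47, adjusted p 0.642). No member of the list passed the edgeR test of a difference between lines, in which 18 of 55 had an unadjusted p under 0.05 and DESeq2 called 2. Other lists parted the lines as well. Mitotic genes had a median of −0.43 in RT112, with 50 of 60 negative, and 0.24 in SCaBER. Of these, 25 of 60 had an unadjusted p under 0.05 in the edgeR test of the difference, and DESeq2 called 5. DNA replication genes had −0.55 in RT112, with 41 of 42 negative, and 0.05 in SCaBER. There 13 of 42 had an unadjusted p under 0.05, and edgeR called 1. Over all genes the edgeR test of the difference called 22 of 14823 (0.148%), among them 8 of the 359 SCaBER calls. Across the 2 fits, INHBA was the gene called in both lines in opposite directions, with −0.93 in SCaBER and 1.92 in RT112 (SE 0.42, adjusted p 0.0047). Its SCaBER call came from the 12-library fit, and in the 24-library fit its SCaBER value of −0.93 did not pass (SE 0.28, adjusted p 0.104).

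**Figure D5:**
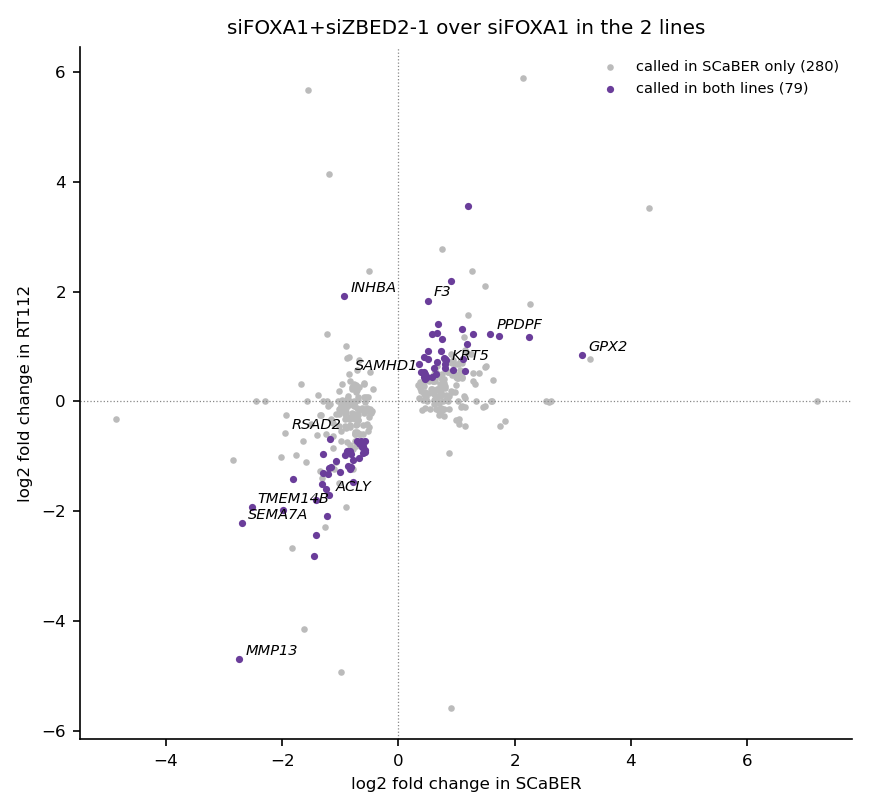
Log2 fold change of siFOXA1+siZBED2-1 over siFOXA1 in SCaBER (x axis, 12-library fit) and RT112 (y axis, 24-library fit) for the 359 genes called in SCaBER. The 79 genes also called in RT112 are purple, and 78 of them lie in the quadrants of equal sign, with INHBA as the exception. Values of 0 in RT112 include genes without counts there.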

How the data were processed

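Cells of both lines were transfected with siRNA (10 ng per the methods of the study) and sequenced with a 3′ kit (QuantSeq FWD, Lexogen). The authors deposited raw counts, integers for each gene. According to the configuration beside these counts, TrimGalore trimmed the reads, STAR 2.6.1a aligned them to hg38 and counted GENCODE genes, and the strand setting was automatic. The study's methods give hg19, but the configuration was taken as correct. Poly(A) stretches and copies of a gene can affect such counts. The authors also deposited TPM made from these counts, used here for limma only.

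Counts were tested with edgeR 4.0.16 in R 4.3.3 (glmQLFit, glmQLFTest, TMM, filterByExpr with minimum count 10 and minimum total count 15). All 12 SCaBER libraries entered with a mean per group, and the contrast was siFOXA1+siZBED2-1 minus siFOXA1. A gene was called at a Benjamini-Hochberg adjusted p under 0.05 over all genes tested. The biological coefficient of variation was 21.6%. The 24-library fit of both lines (24.5%) tested the difference between lines. Alternatives were RLE factors, library size alone, no filter, the 4 libraries alone, a replicate block, DESeq2 1.42.0, limma 3.58.1 on log2(TPM + 1), a 2-fold minimum and leaving out each of the 4 libraries. CPM use TMM-scaled totals. Replicate numbers stand for experiment batches in the labels and therefore pair libraries. The replicate 1 deviations of both groups had a correlation of 0.03 over genes. edgeR was tested on simulated data.

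Named genes were ZBED2, FOXA1, STAT2, IRF1, IRF9 and CD274, the 12 higher and 12 lower genes with the smallest p whose groups did not overlap, and up to 4 called members per list with the smallest p, with further called members named where a count was described. Some genes that the rule names are not reported here. The comparison, the 35 gene lists and the markers were chosen with earlier results of these data known, so no list was tested. Coordinates and promoters are those of RefSeq on GRCh38.p14, matched by symbol. Sequences of the siRNAs were not used here.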

Additional observations from a re-analysis of the deposited data

Results flagged for a closer look

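Of the 359 genes called in SCaBER by the 12-library fit, 8 also passed the edgeR test of the difference between lines in the 24-library fit. The value given for each is the log2 fold change in SCaBER minus that in RT112, and the genes were not chosen by the rule for named genes in the case of PTGES, H2AFY, ATP2B4 and TRIM38. For INHBA, the activin subunit, the difference was −2.85 (SE 0.50, adjusted p 0.0057), with 436 and 391 CPM under siFOXA1 and 237 and 196 CPM in the double knock-down of SCaBER, against 8.28 and 3.48 CPM and 25.5 and 19.7 CPM in RT112. For SAMHD1 it was −1.35 (adjusted p 0.0095), lower in 2 of 2 double knock-down libraries in SCaBER and higher in 2 of 2 in RT112. The rise of SAMHD1 in RT112 did not pass (edgeR, adjusted p 0.143). For TRIM38, a ubiquitin ligase of innate immune signalling, it was −1.20 (adjusted p 0.036), and for the calcium pump gene ATP2B4 −1.03 (adjusted p 0.036). PTGES, the inducible prostaglandin E synthase, differed by 1.44 (adjusted p 0.0057) and H2AFY, the macroH2A histone, by 0.92 (adjusted p 0.027), both called higher in SCaBER and not called in RT112. GPX2 and F3 rose in both lines to a different extent, with differences of 2.29 (adjusted p 0.049) and −1.33 (adjusted p 0.010). The SCaBER call of F3 came from the 12-library fit, and in the 24-library fit its value of 0.51 did not pass (adjusted p 0.133). The SCaBER GPX2 level was low (2.04 and 0.454 CPM under siFOXA1), so its fold change rests on few counts.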

How the results depend on the processing

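The 359 calls were 201 to 408 when 1 of siFOXA1 replicates was left out and 133 to 283 when 1 of the double knock-down was, a range of 133 to 408. They were 104 by limma on log2(TPM + 1) and 122 with a 2-fold minimum, and the fit with the replicate block gave 525. No call changed sign in any alternative. With siFOXA1 replicate 2 or double knock-down replicate 2 left out, 43.7% and 34.8% of the calls remained. Of the 92 called named genes, 36 were called in each of 11 alternative fits, which do not include the 2-fold minimum. STAT2 did not pass with library size alone (−0.69, adjusted p 0.052), with limma (−0.63) or in 3 of the 4 fits that left out a library, which ranged from −0.46 to −0.90. CD274 passed with only the 4 libraries compared (−1.36, adjusted p 0.033), with the block (−1.44) and without double knock-down replicate 1 (these fits ranged from −2.20 to −0.86). The antiviral median ranged from −0.91 to −0.45 when 1 library was left out, with 10 to 32 called members, and limma called 2. IRF9 changed sign without double knock-down replicate 2 (−0.67) and with limma (−0.0012), in neither of which it passed, and fits that left out a library ranged from −0.67 to 0.57. The count for the difference between lines was 22, 147 with DESeq2 and 56 with the replicate block within line. The cause of these shifts was not tested. DESeq2 gave no adjusted p for 4073 genes. Depth limited FOXA1, whose levels lay near the floor of 3 counts.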
